A study of Rattus norvegicus and Mus musculus with 9 samples.

Results

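The G1 and S phase cyclins and kinases were 10 genes chosen by name: the D cyclins Ccnd1, Ccnd2 and Ccnd3, their kinases Cdk4 and Cdk6, the E cyclins Ccne1 and Ccne2, the kinase Cdk2, the A cyclin Ccna2 and the phosphatase Cdc25a. All 10 were measured, each by 1 probe set, among 14506 named genes on the rat arrays and 19938 on the mouse arrays. The study profiled 3 kinds of cultured cell with 3 arrays each. Rat embryonic stem (ES) cells of the DA strain were grown in 3I; media of that name block the FGF receptor and the kinases MEK and GSK3. Embryonic fibroblasts of the same strain were kept in GMEM and 10% fetal bovine serum. Mouse ES cells of strain C57/BL6 had that serum medium plus leukaemia inhibitory factor (LIF). Removal of feeder cells is recorded for the mouse cultures and not for the rat ES cultures. Cell type and medium differed together between the rat groups and cannot be told apart. Whether replicate arrays stand for separate cultures is not stated, so the p-values rest on a spread between arrays that may be technical.

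A cell commits to dividing in G1. D cyclins, made in answer to growth signals, bind Cdk4 or Cdk6 and begin the phosphorylation of the retinoblastoma protein, which frees E2F transcription factors. Cyclin E with Cdk2 then completes that step and starts DNA replication, cyclin A with Cdk2 carries the cell through S phase, and Cdc25a removes the inhibitory phosphates from these kinases. ES cells are known for a short G1 phase, and mouse ES cells for little D cyclin activity and cyclin E activity that varies little over the cycle.

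Values are the authors' log2 signals, on which 1 unit is a 2-fold difference. A gene was called where limma gave an adjusted p under 0.05 and a difference of at least 2-fold. Of the 10 genes 3 were called, where 20.7% of all genes were. All 3 (Ccnd1, Ccnd2 and Cdk6) were lower in rat ES cells, where 10.1% of all genes were called lower, and none was called higher, where 10.6% of all genes were. Without the 2-fold requirement all 10 passed the limma adjusted p, where 56.3% of all genes did, with 6 of the 10 higher (30.9% of all genes) and 4 lower (25.5%). The signals of the rat groups did not overlap for any of the 10, against 61.5% of all genes, and again 6 were higher (33.2% of all genes) and 4 lower (28.3%). The median difference of the 10 was 0.30, beside -0.00069 over all genes, and the 10 held differences in both directions.

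**Figure D1:**
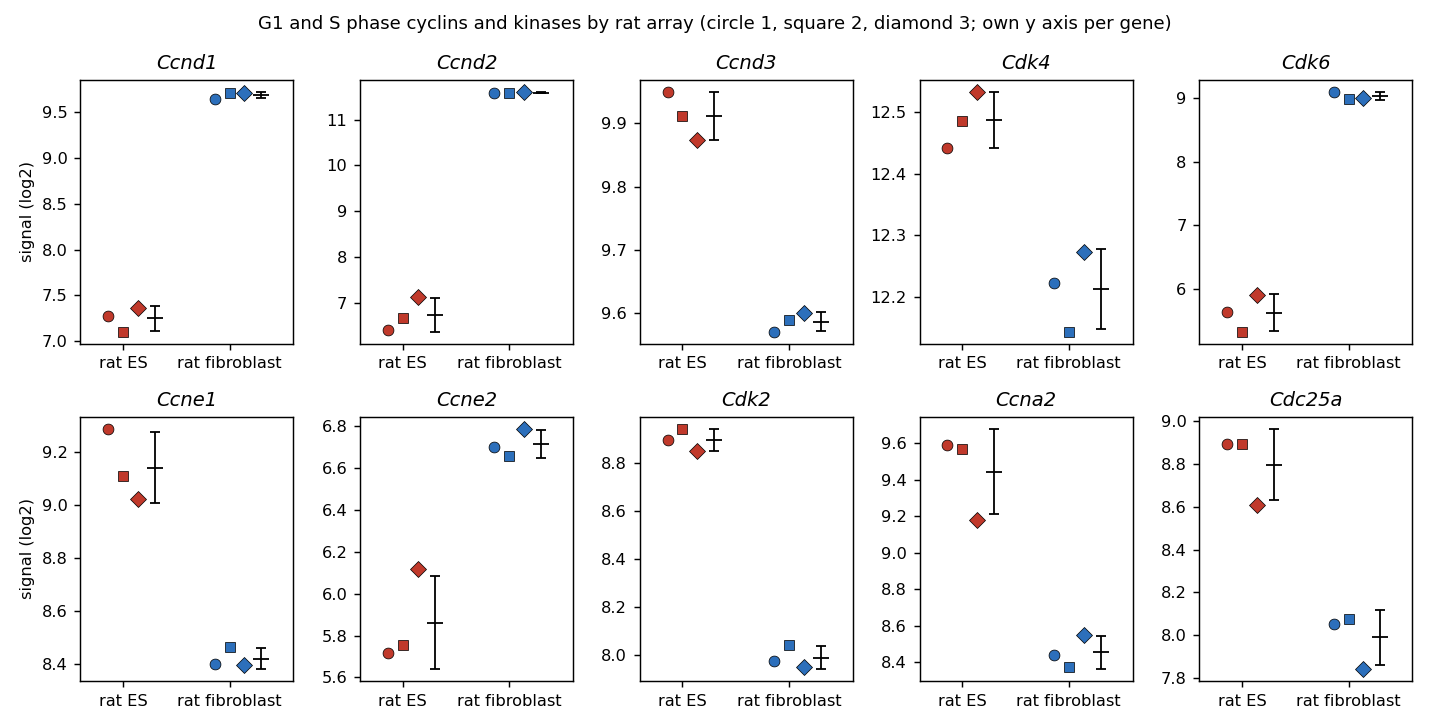
Signal (log2) of each gene on the 3 rat ES arrays (red) and the 3 rat fibroblast arrays (blue), with the group mean and SD in black and a y axis of its own for each gene. The groups are apart for all 10 genes; Ccnd2 spans 6.42 to 7.14 in ES cells against 11.58 to 11.61 in fibroblasts, whereas Cdk4 spans 12.44 to 12.53 against 12.14 to 12.27.

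The identity of the rat cultures was checked on marker genes. All 6 ES cell markers measured were called higher in rat ES cells, including the pluripotency factors Pou5f1 (log2 difference 7.04) and Nanog (6.73), and in fibroblasts 4 or 5 of the 6 lay below the array median. Of 12 fibroblast markers, 10 were called lower in rat ES cells, including the collagen gene Col1a1 (-3.75) and the intermediate filament gene Vim (-4.81). The mean signal of these 12 was 6.83, 7.05 and 7.25 on rat ES arrays 1, 2 and 3, with 6, 4 and 5 of them below the array median, and 10.33 to 10.41 in fibroblasts. Col1a1 itself was at 9.71, 10.17 and 10.56 on the 3 ES arrays, well above the array medians and highest on array 3. None of 6 endoderm markers and none of 5 neural markers was called higher in rat ES cells, where 10.6% of all genes were. Of the same markers 2 and 3 were called lower, where 10.1% of all genes were. These calls are relative to fibroblasts and do not show absence from ES cells. On rat ES arrays 1, 2 and 3, 6, 6 and 5 endoderm markers and 3, 3 and 3 neural markers lay below the array median. Of 5 trophoblast markers Cdx2 was called higher (3.80) and Gata3 lower (-1.71). Single calls in a list of 5 lay near the shares over all genes. In bulk RNA, fewer cells of a type and less RNA per cell cannot be told apart.

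The D cyclins split. Ccnd2, the cyclin of many growth factor responses, had the largest difference of the 10. Its probe set (10865782) read 6.42, 6.67 and 7.14 on the rat ES arrays and 11.58, 11.59 and 11.61 on the fibroblast arrays. The fibroblast arrays thus lay close together and far above the ES arrays, among which array 3 was the highest. The group means were 6.74 ± 0.364 (SD, n = 3) and 11.59 ± 0.016, and Ccnd2 fell by 4.85 on the log2 scale (SE 0.16, limma adjusted p = 4.9e-08), which is 28.8-fold (95% interval 22.3 to 37.2). Counted from the most negative, this difference had rank 48 of 14506. Ccnd1, the cyclin most tied to serum and mitogen signalling, read 7.27, 7.10 and 7.36 on the ES arrays and 9.65, 9.71 and 9.71 on the fibroblast arrays (probe set 10727260). It fell by 2.44 (SE 0.08, limma adjusted p = 5.21e-08), or 5.43-fold (4.77 to 6.19), and its ES signals stayed above the array medians of 5.71 to 5.74. Ccnd3, the other D cyclin, differed in the opposite direction. It read 9.95, 9.91 and 9.87 in ES cells and 9.57, 9.59 and 9.60 in fibroblasts (probe set 10940641), higher in ES cells by 0.33 (SE 0.06, limma adjusted p = 0.00187) and so by only 1.25-fold (1.13 to 1.38), far under the 2-fold required for a call.

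The kinases of the D cyclins split as well. Cdk6 read 5.64, 5.33 and 5.91 on the rat ES arrays and 9.10, 8.98 and 9.003 on the fibroblast arrays (probe set 10860765, which the platform annotation ties to a sequence record outside RefSeq). ES arrays 1 and 2 lay below the array median, so the size of this difference is uncertain. As measured, Cdk6 fell by 3.40 (SE 0.14, limma adjusted p = 1.3e-07), or 10.5-fold (8.49 to 13.1). Cdk4, the partner kinase with the same substrate, read 12.44, 12.49 and 12.53 in ES cells and 12.22, 12.14 and 12.27 in fibroblasts (probe set 10895797). It was near the top of the signal range on every array and was higher in ES cells by 0.27 (SE 0.07, limma adjusted p = 0.00802), a 1.21-fold difference (1.08 to 1.35) that became 0.18 after quantile normalization.

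Unequal change within a family was tested directly, on the difference between a pair of genes on each array, by an exact two-sided permutation of the 6 rat arrays. With 20 assignments the smallest p this design allows is 0.1, and all 6 pairs tested reached it (exact permutation p = 0.1 each, and 0.1 after Benjamini-Hochberg adjustment over the 6), so none can pass 0.05. The pairs share genes and arrays and are not independent of one another. The difference of Ccnd1 minus that of Ccnd2 was 2.41 on the log2 scale (SE 0.18, 5.30-fold). For Ccnd1 minus Ccnd3 it was -2.77 (SE 0.09), and for Ccnd2 minus Ccnd3 -5.17 (SE 0.23, 36.1-fold). Cdk4 minus Cdk6 was 6.62 to 7.15 on the ES arrays and 3.12 to 3.27 on the fibroblast arrays, which gives 3.67 (SE 0.16, 12.7-fold). Transcripts of Ccnd1, Ccnd2 and Cdk6 were thus lower in rat ES cells, beside Ccnd3 and Cdk4 at 1.25-fold and 1.21-fold higher.

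**Figure D2:**
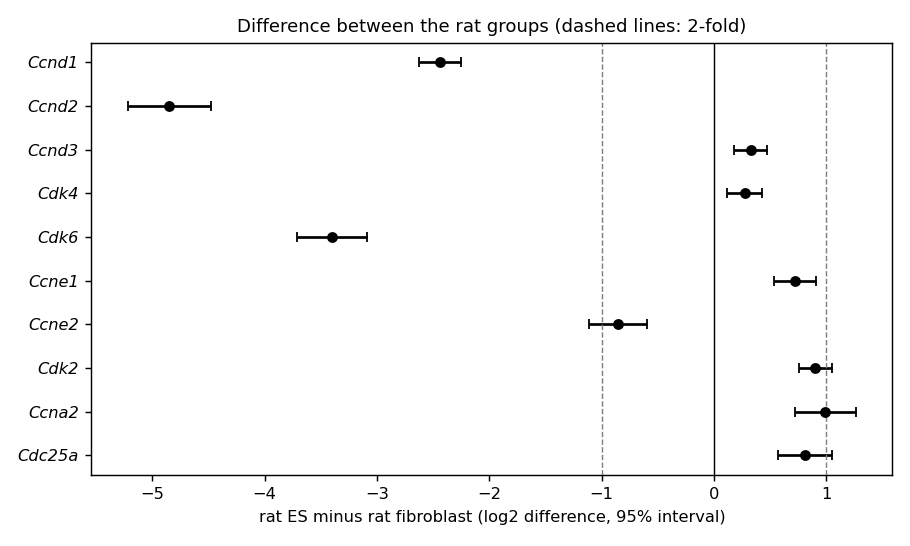
Difference between rat ES cells and rat fibroblasts (log2, x axis) for each gene, with the 95% interval of the limma fit; dashed lines mark 2-fold in either direction. Ccnd1, Ccnd2 and Cdk6 lie beyond 2-fold lower, at -2.44, -4.85 and -3.40, and the intervals of Cdk2, Ccna2 and Cdc25a include 2-fold higher, with upper limits of 2.08-fold, 2.40-fold and 2.07-fold.

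The E cyclins differed in opposite directions, both by less than 2-fold. Ccne1, which activates Cdk2 at the start of S phase, read 9.29, 9.11 and 9.03 on the rat ES arrays and 8.40, 8.46 and 8.40 on the fibroblast arrays (probe set 10721176). It was higher in ES cells by 0.72 (SE 0.08, limma adjusted p = 7.85e-05), or 1.65-fold (1.45 to 1.88). Ccne2, which binds the same kinase, read 5.72, 5.75 and 6.12 in ES cells and 6.70, 6.66 and 6.79 in fibroblasts (probe set 10867614). Its signals were low in both groups, and ES array 1 lay below the array median. Ccne2 was lower in ES cells by a log2 difference of -0.85 (SE 0.11, limma adjusted p = 1.85e-04; 1.80-fold, 1.51 to 2.16). Ccne1 minus Ccne2 was 2.91 to 3.57 in ES cells and 1.61 to 1.81 in fibroblasts, which gives 1.57 (SE 0.20) for this pair.

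The S phase kinase, the A cyclin and the phosphatase were all somewhat higher in rat ES cells. Cdk2 read 8.89, 8.94 and 8.85 in ES cells and 7.98, 8.04 and 7.95 in fibroblasts (probe set 10899901), with a log2 difference of 0.90 (SE 0.07, limma adjusted p = 4.29e-06; 1.87-fold, 1.68 to 2.08). Its replicates were tight in both groups. The difference of Cdk2 minus that of Cdk4 was 0.63 (SE 0.08, 1.55-fold). Ccna2, whose product drives DNA replication with Cdk2, read 9.59, 9.57 and 9.18 in ES cells and 8.44, 8.37 and 8.55 in fibroblasts (probe set 10822852). ES array 3 was its lowest ES value by 0.40 from the mean of the other two. Ccna2 lay at the edge of the call, with a difference of 0.99 (SE 0.12, limma adjusted p = 1.02e-04; 1.99-fold, 1.65 to 2.40), and was called higher without ES array 3 (1.13) and without fibroblast array 3 (1.04). Cdc25a read 8.89, 8.89 and 8.61 in ES cells and 8.05, 8.07 and 7.84 in fibroblasts (probe set 10913553), with a difference of 0.81 (SE 0.10, limma adjusted p = 1.68e-04; 1.75-fold, 1.48 to 2.07).

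Promoter sequence from RefSeq (rat build GRCr8) was matched by symbol for 5 of the 10 genes: Ccnd3, Cdk4, Ccne1, Cdk2 and Cdc25a. The 250 bases before the annotated start are shown for the 3 of them with the larger differences, 1.65-fold to 1.87-fold higher in rat ES cells; Ccnd3 and Cdk4 were higher too, by 1.25-fold and 1.21-fold. They are Ccne1 (chr1:99927910-99928159, minus strand), Cdk2 (chr7:1721879-1722128, minus strand) and Cdc25a (chr8:118742798-118743047, plus strand), each written 5′ to 3′ along the gene. Capitals mark matches on either strand to the GC box GGGCGG and to an E2F site spelled TTTGGCGC, TTTCCCGC, TTTCGCGC or TTTGCCGC.
Ccne1: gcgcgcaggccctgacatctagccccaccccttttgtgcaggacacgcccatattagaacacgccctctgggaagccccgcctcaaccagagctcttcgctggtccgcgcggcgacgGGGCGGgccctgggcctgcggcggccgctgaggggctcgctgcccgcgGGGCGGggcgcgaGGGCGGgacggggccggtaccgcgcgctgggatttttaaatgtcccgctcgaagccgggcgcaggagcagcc
Cdk2: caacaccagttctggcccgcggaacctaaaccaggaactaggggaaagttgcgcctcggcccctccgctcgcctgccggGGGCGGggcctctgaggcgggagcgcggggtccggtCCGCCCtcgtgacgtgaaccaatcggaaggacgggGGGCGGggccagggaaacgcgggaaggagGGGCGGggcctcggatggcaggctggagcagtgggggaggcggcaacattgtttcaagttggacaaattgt
Cdc25a: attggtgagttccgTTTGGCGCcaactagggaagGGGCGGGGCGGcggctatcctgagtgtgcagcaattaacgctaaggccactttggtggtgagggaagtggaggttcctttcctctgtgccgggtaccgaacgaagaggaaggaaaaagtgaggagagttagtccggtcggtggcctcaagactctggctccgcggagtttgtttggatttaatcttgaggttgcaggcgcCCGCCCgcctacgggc
The Ccne1 window held 3 GC boxes, the Cdk2 window 4 and the Cdc25a window 3, of which 2 overlap by 1 base. The E2F letters matched once, as TTTGGCGC at 236 to 229 bases before the Cdc25a start, and in none of the other 4 windows; 1.73% of 33469 rat promoter windows of the same length held them. Ccnd3 and Cdk4 held 2 and 1 GC boxes. All 5 windows thus held a GC box, where 30.5% of all windows did, and all 5 were rich in G and C (58.0% to 72.8%, beside a median of 51.2%), the only letters of a GC box. CCAAT was found in the Ccnd3, Cdk2 and Cdc25a windows and in 34.0% of all windows, and neither TATAAA (12.9%) nor TTTGAA (16.2%), the core of the cell cycle homology region, was found in any of the 5. These are matches of letters and do not show that a factor binds.

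Rat ES array 3 stood nearer to the fibroblasts than its replicates in these genes. It was the ES array closest to the fibroblast mean for 9 of the 10 (all but Cdk4). The same held for 38.0% of all genes, 45.8% of called genes and 51.4% of genes called lower. Relative to the mean of ES arrays 1 and 2 it was higher by 0.59 for Ccnd2, 0.43 for Cdk6, 0.38 for Ccne2 and 0.18 for Ccnd1. It was also lower for Ccna2 (-0.40), Cdc25a (-0.29) and Ccne1 (-0.17). For Ccnd3 (-0.058) and Cdk2 (-0.068) the gap was no larger than that of Cdk4 (0.069). The mean signal of the fibroblast markers was highest on the same array, as given above, though not every marker was. Their part in these differences was not tested. Without ES array 3 the log2 differences were -5.05 for Ccnd2, -3.54 for Cdk6 and -2.50 for Ccnd1, so all 3 calls held without it.

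The rest of the G1 to S machinery was read from 8 lists holding 57 measured genes besides the 10. Of these, 19 were called higher and 6 lower in rat ES cells, where 10.6% and 10.1% of all genes were, so the 6 lower lay near the share over all genes. The lists below are small and are described by their counts against the same shares. Among 6 CDK inhibitor genes, 4 were called lower; the median difference was -1.83 and none was called higher. They included the Cdk4 and Cdk6 inhibitors Cdkn2a (5.93, 5.89 and 6.07 in ES cells against 9.40, 9.33 and 9.38) and Cdkn2b, which fell by 3.41 and 3.12. Cdkn1a, the p53-induced inhibitor p21, fell by 1.86, while Cdkn1b, which encodes p27, was at 8.12 in both groups (log2 difference -0.0042, limma adjusted p = 0.963). Signals of Cdkn2b were 6.64, 6.48 and 7.12 on ES arrays 1 to 3, so array 3 was again the highest. Cdkn2a and Cdkn2b were thus lower in the same cells as Ccnd1, Ccnd2 and Cdk6.

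Downstream, the S phase entry genes, mitotic genes and markers of cycling cells had more genes called higher than lower. Among all genes 10.6% were called higher and 10.1% lower. Rb1, the retinoblastoma gene, rose by 1.18 (8.13, 8.24 and 8.04 against 6.88, 6.86 and 7.13; limma adjusted p = 7.8e-06), and the other measured family member, Rbl2, was at -0.75. Of 6 E2F and DP factor genes, E2f8, a repressor of the E2F family, was called higher (1.57) and no other was called. This single call of 6 lay near the share over all genes, and the median was 0.65. Of 10 S phase entry genes, 8 were called higher; the median was 1.45 and none was called lower. The largest were Mybl2 (3.61), an E2F target that encodes a transcription factor, and the ribonucleotide reductase gene Rrm2 (2.14), whereas the thymidine kinase gene Tk1 was at -0.40. The median of this list lay above the 0.72 to 0.99 of Ccne1, Cdk2, Ccna2 and Cdc25a. Of 4 mitotic genes, the cyclin genes Ccnb1 (1.89) and Ccnf (1.75) were called higher, and Cdk1, the mitotic kinase, was at 0.71 (SE 0.07, limma adjusted p = 2.09e-05). Of 5 markers of cycling cells measured, 4 were called higher, Top2a (1.61) and Aurka (1.51) the most. A called gene of this list is also among the S phase entry genes, so the counts of these lists are not independent. The mean signal of the 5 markers was 9.46 to 9.53 on the ES arrays and 8.16 to 8.30 on the fibroblast arrays. A larger share of cycling cells and more RNA per cycling cell cannot be told apart here. Mki67 was not among the rat genes tested.

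Most regulators of kinase activity and of cyclin turnover were not called. Among all genes 10.6% were called higher and 10.1% lower. Of 7 genes of the CDK-activating kinase, the other CDC25 phosphatases and the inhibitory kinases, 3 were called higher and none lower. Pkmyt1 (1.92) and Wee1 (1.76), which encode the kinases that place the inhibitory phosphates Cdc25a and its relatives remove, led this group. Of 10 ubiquitin ligase subunits and cofactors, 3 were called higher, among them Fbxo5, the inhibitor of the anaphase-promoting complex (1.62), and Skp2, which marks p27 for degradation (1.09). Fbxo4, reported to act on cyclin D1, fell by 1.65, between group means of 3.92 and 5.56 that both lay below the array medians. Of 12 other cyclins and CDKs, Ccnk (1.34), a partner of transcriptional kinases, was called higher and Cdk14 (-3.38), a kinase of Wnt signalling, lower. These single calls of 12 lay near the shares over all genes, as did the 1 lower of the 10 ubiquitin ligase genes. Cdk14 read 6.78, 6.58 and 6.31 in ES cells and 9.90, 10.02 and 9.91 in fibroblasts, so here ES array 3 was the lowest.

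**Figure D3:**
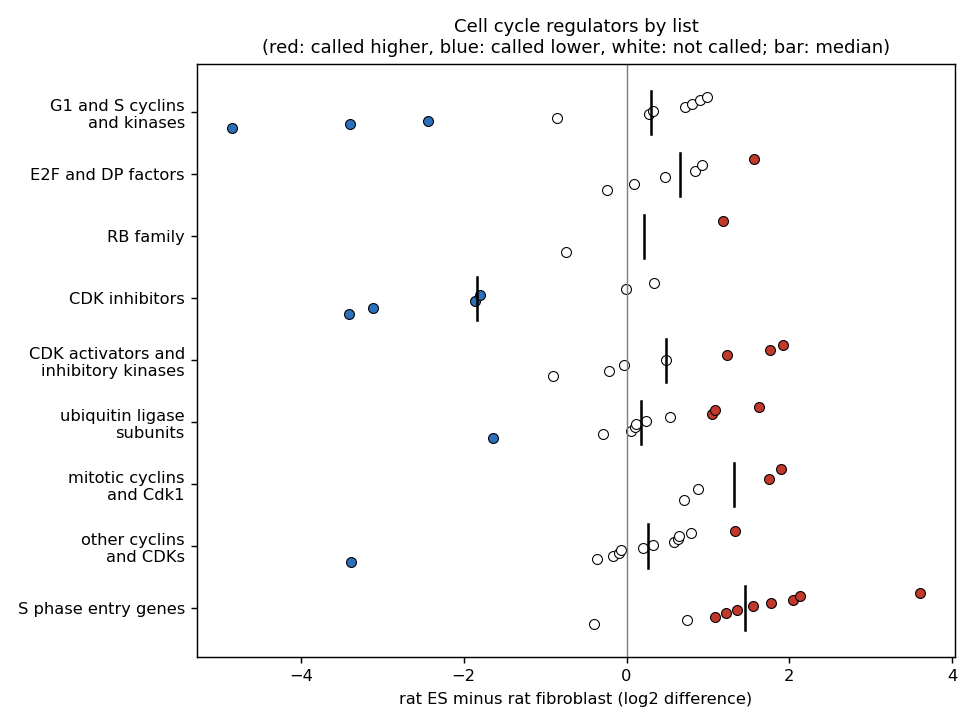
Log2 difference between rat ES cells and rat fibroblasts (x axis) for the 10 G1 and S cyclins and kinases and for 8 lists of other cell cycle regulators, 1 point per gene; red points were called higher, blue points lower, and bars are medians. The medians run from -1.83 for the CDK inhibitors to 1.45 for the S phase entry genes, with 0.30 for the 10 genes described here.

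Mouse ES cells were measured on another platform, normalized apart, so each gene was placed by its percentile within an array among the 12114 symbols in both tables, with no test. Species, medium and probe design differ together between mouse and rat arrays and cannot be told apart. Identical values recur across the mouse arrays, where 16691 to 20845 of 35557 values were shared by a pair of arrays, so no SD is given. Ccnd3, Ccne1 and Ccne2 had the same log2 value on all 3 mouse arrays (7.23, 9.62 and 3.73).

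The D cyclins and their kinases stood differently in the ES cells of the 2 species. Ccnd1 was at percentiles 92.4, 92.8 and 92.0 on the mouse ES arrays and at 59.7, 56.4 and 60.5 on the rat ES arrays, with rat fibroblasts at 92.8 to 93.3. By percentile it therefore stood about as high in mouse ES cells as in rat fibroblasts. Cdk6 was at 75.8, 75.2 and 76.1 in mouse ES cells, against 29.4 to 38.7 in rat ES cells and 86.3 to 88.2 in rat fibroblasts, so the mouse cells lay between the rat groups. Ccnd2 was also between them, at 70.3 to 71.0 in mouse ES cells, 46.9 to 56.6 in rat ES cells and 99.1 in rat fibroblasts. Ccnd3 ran the other way, at 72.7 to 74.4 in mouse ES cells against 94.2 to 94.8 in rat ES cells and 92.2 to 92.5 in rat fibroblasts. Cdk4 was at 99.6 to 99.7 on all 9 arrays.

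Ccne1, Cdk2, Ccna2 and Cdc25a stood higher in both kinds of ES cell than in rat fibroblasts. Ccne1 was at 96.2 to 96.6 in mouse ES cells, 86.9 to 90.0 in rat ES cells and 79.6 to 80.2 in rat fibroblasts. Cdk2 (90.6 to 91.1), Ccna2 (94.7 to 94.99) and Cdc25a (94.6 to 94.7) in mouse ES cells likewise lay above the highest rat ES value (85.7, 92.5 and 85.6), which lay above the highest rat fibroblast value (73.5, 82.0 and 74.1). All 4 had the order mouse ES, rat ES, rat fibroblast without overlap. The share of all shared symbols with this order was not counted. In signal, rat ES cells alone lay above rat fibroblasts without overlap for 33.2% of all genes. Ccne2 had the reverse order, at 13.8 to 14.3 in mouse ES cells, 36.0 to 41.6 in rat ES cells and 49.0 to 51.4 in rat fibroblasts, and its mouse signal lay below the array median.

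**Figure D4:**
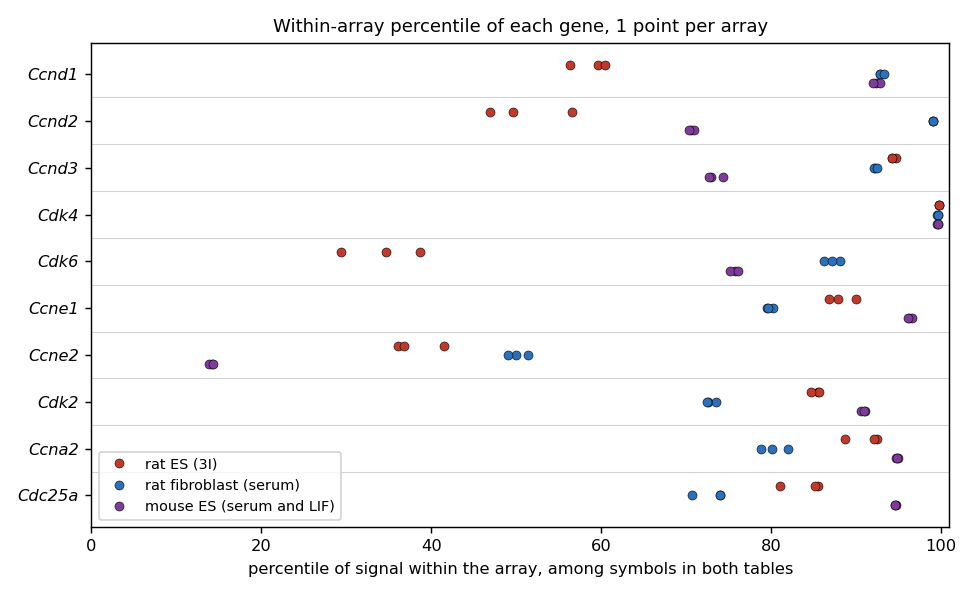
Percentile of each gene's signal within each array (x axis) among the symbols in both tables, 1 point per array, for rat ES cells (red), rat fibroblasts (blue) and mouse ES cells (purple). Mouse ES cells lie close to rat fibroblasts for Ccnd1 (92.0 to 92.8 against 92.8 to 93.3) and beyond the rat ES cells for Ccne1, Cdk2, Ccna2 and Cdc25a.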

How the data were processed

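Total RNA of 9 samples was labelled with biotin as fragmented single-stranded DNA and hybridized to 1 array each, per the labels' protocols. What the authors deposited are log2 signals per probe set in a rat table (29215 probe sets) and a mouse table (35557); the log2 scale was read from the value range, and the background correction, normalization and summary method are not given in the sources at hand. Array medians differed by under 0.1 within a table, and the values were used as deposited.

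Probe sets with 1 symbol in the platform annotation were kept (15310 rat, 21789 mouse), with the highest mean per symbol. All rat genes were fitted with limma 3.58.1 in R 4.3.3 (group only, Benjamini-Hochberg adjustment, no filter on level). Tested on simulated data with 14506 genes, for the rat comparison, limma called 99% of genes changed by 1.5 and 100% of those changed by 3 on the log2 scale, and 0 unchanged genes. The simulation changed 200 genes, whereas 8172 passed the adjusted p in the data. Its noise was independent, with the spread between the deposited arrays, at which the 2-fold requirement makes false calls unlikely. It does not address spread between separate cultures. Percentiles and exact permutation tests were computed in Python 3.11.15. Genes named outside the 10 were up to 2 called members with the largest change in each direction of a list, 5 cell cycle genes and 4 markers fixed by name, and, chosen after their values were seen, Rbl2, Tk1, Cdx2 and Gata3. The 10 genes, the lists and the pairs tested were chosen with earlier results of these data known. Precision is limited by the number of arrays.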

Additional observations from a re-analysis of the deposited data

How the results depend on the processing

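The direction of all 10 differences held under quantile normalization, median centring and leaving out each rat array. Median centring shifts every gene by the same amount. The other settings were filters on level at the 25th percentile and the median, the mean of all probe sets, eBayes with trend and robust settings and the replicate block. By construction these leave the difference of each of the 10 genes as it was, and only its SE and p could move. Ccne2 was not tested under the median filter. Each gene had 1 probe set, so other probe sets could not be tried. The count of 3 lower was the same in all of these and with a 4-fold requirement. The count called higher, 0, ranged from 0 to 1 when an array was left out, through Ccna2. With no fold requirement 6 were called higher and 10 in either direction, where 30.9% and 56.3% of all genes were. At 1.5-fold 4 were called higher and 8 in either direction, where 5108 of 14506 genes were called in either direction. Of the 57 other regulators, 19 higher and 6 lower became 35 and 11 with no fold requirement and 3 and 3 at 4-fold. Over all 14506 genes, 2996 calls in either direction became 8172 and 995 at the same settings. Same-numbered rat arrays did not deviate together (correlations -0.00044, 0.031 and -0.0003), and were not taken as pairs; with the replicate block 0 of the 10 genes were called higher and 3 lower, with 19 and 6 of the other regulators, and the difference of paired genes is the same by construction (2.41 for Ccnd1 minus Ccnd2). The direction of the 6 paired differences held under quantile normalization and leaving out each rat array. With the mean of all probe sets it could not change either. The median mouse ES percentile of the 10 genes, 91.6, was 93.9 among all named genes and 92.0 with the mean of all probe sets. Single genes moved more among all named genes: Ccne2 from 14.1 to 24.2, Ccnd2 from 70.6 to 77.6, Ccnd3 from 73.3 to 79.8 and Cdk6 from 75.7 to 81.7. The rest of the 10 moved less than these. Signals near the array median, as for Cdk6 and Ccne2 in rat ES cells, limit the size of a difference. Ccnd2 in rat ES cells lay above the array medians but at percentiles 46.9 to 56.6 among the symbols in both tables. The size of its difference may be limited too.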

Other observations

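Mouse ES cells lay nearer to rat ES cells than to rat fibroblasts in mean percentile for 6 of the 10 genes, near the 57.1% of the 12114 shared symbols for which this held. The other 4 were Ccnd1, Ccnd3, Cdk4 and Cdk6. Of these, Ccnd3 lay at similar distances from both (21.1 points from rat ES cells and 18.9 from fibroblasts), as did Cdk4 (0.13 and 0.014 points). Among shared genes called lower in rat ES cells, 74.3% lay nearer to rat ES cells, and of the 3 such genes here Ccnd2 did and Ccnd1 and Cdk6 did not. The median size of the difference in percentile between rat and mouse ES cells was 15.1 over the 10 genes and 8.63 over all shared symbols.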
